A study of Homo sapiens with 27 samples.

Results

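BSPRY, KDF1, LAD1, ATP2C2, MAP7, CDS1, SH2D3A, TSPAN1 and TSPAN13 are 9 epithelial genes that were near 0 or low in control cells and rose in MDA-MB-231 cells in which ZEB1 was repressed. They are 9 of the 57165 genes measured. They were chosen by their levels in MDA-MB-231 targeted and control libraries, so the change in that line, and its difference from the change in SUM159, are given as a description, without a test, and the tests below are for comparisons the choice did not use. Part of the 9 were already known from SUM159 cells of the same series when they were chosen, so the SUM159 p-values are not fully independent of the choice either.

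RNA was sequenced from SUM159 and MDA-MB-231, both established triple negative breast cancer lines with mesenchymal features. In each line, untransduced wild type cells were compared with cells that carried the lentiviral vector pLV-KRAB (dCas9-KRAB, a catalytically dead Cas9 fused to a repressor domain) with no targeting gRNA (No gRNA), with gRNA 4 against the ZEB1 promoter, or with all 4 ZEB1 promoter gRNAs together (All gRNA). Transduced SUM159 cells were selected with 1.25 µg/mL puromycin and transduced MDA-MB-231 cells with 0.75 µg/mL, and wild type cells were not transduced. The 27 libraries formed 9 groups of 3, which the labels call biological replicates and the study's methods call individual clones, so that p-values measure the spread between these libraries. Run 1 held 12 SUM159 libraries, 3 in each condition. Run 2 held the 12 MDA-MB-231 libraries and 3 further SUM159 wild type libraries. Cell line and run therefore cannot be told apart for the transduced cells. For 6 libraries, those of targeted MDA-MB-231 cells, the sample titles and the names in the count table assign gRNA 4 and All gRNA the other way round. They are called set 1 (titled gRNA 4) and set 2 (titled all 4 gRNAs).

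Levels are given as CPM, the counts of a gene scaled to a fixed library total after TMM scaling, which sets libraries to a common scale. CPM does not account for gene length, so levels are compared for 1 gene across groups and not between genes. Each library held from 15461200 to 21473757 estimated counts. ZEB1, the targeted gene, had a mean level of 73.8 CPM in SUM159 No gRNA cells, 3.46 CPM with gRNA 4 and 0.738 CPM with All gRNA. Its mean in MDA-MB-231 was 110.2 CPM in No gRNA cells, 5.34 CPM in set 1 and 4.69 CPM in set 2. The estrogen receptor gene ESR1 stayed at or under 0.185 CPM and the progesterone receptor gene PGR at or under 0.960 CPM in every library, while ERBB2 was between 38.2 and 72.2 CPM. Of the mesenchymal markers, vimentin (VIM) was at 1317 CPM or more in every library, and CDH2 and SPARC were as low as 0.0455 and 0.0481 CPM in the lowest. Of the leukocyte genes, PTPRC and CD3E did not exceed 0.294 CPM, while CD68 was between 8.51 and 173.8 CPM. In these bulk libraries, a change in the share of cells that express a gene and a change in the amount of RNA per cell cannot be told apart.

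ZEB1 is a zinc finger repressor that binds E-box motifs, best known as CACCTG, in promoters of epithelial genes and recruits corepressors there. It is a main driver of the epithelial to mesenchymal transition, in which cells lose polarity and cell contacts. The 9 genes cover several functions of a polarised epithelium. KDF1 and LAD1 belong to epidermal differentiation and epithelial anchorage, and BSPRY encodes a B-box and SPRY domain protein of epithelial cells. ATP2C2 encodes a calcium pump of the secretory pathway, MAP7 a microtubule-binding protein that works with kinesin-1, CDS1 an enzyme of phospholipid synthesis, SH2D3A an adaptor that couples receptors to BCAR1, and TSPAN1 and TSPAN13 membrane proteins of the tetraspanin family.

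RefSeq promoter windows (GRCh38.p14, 250 bases before to 50 after the start site) were found for 8 of the 9 genes, all but ATP2C2, and were searched for CACCTG and its reverse complement CAGGTG, which do not overlap one another. The motif was in the windows of 6 of the 8 genes, namely BSPRY, KDF1, LAD1, MAP7, CDS1 and TSPAN13, and in 24.1% of the 27305 genes with a window (20.6% of 35116 windows). At least 2 copies were found for 4 of the 8, against 4.2% of all genes. Of 23 other epithelial genes with a window, 14 (60.9%) had the motif and 8 (34.8%) at least 2 copies. The first window of each of the 8 held between 52.0% and 76.7% G and C, and of the 20656 windows in this range 23.3% had the motif and 4.38% had at least 2. The stretches below are shown because they hold every copy found. They are written 5′ to 3′ on the gene's strand, with the motif in capitals and positions counted from the start site, where 1 is the first transcribed base.

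BSPRY, -9 to 21, chr9:113349532-113349561, plus strand: cccgccgcCACCTGcgaCAGGTGgagcgca
KDF1, -216 to -187, chr1:26960655-26960684, minus strand: gcagaagttccaCAGGTGctcagagactga
KDF1, -43 to -14, chr1:26960482-26960511, minus strand: ggggcctcggtcCAGGTGcgcggtagcgct
LAD1, -73 to -18, chr1:201399342-201399397, minus strand: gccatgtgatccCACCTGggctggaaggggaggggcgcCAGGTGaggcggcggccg
MAP7, -182 to -153, chr6:136550575-136550604, minus strand: gctgccacgccgCACCTGcccgcgaggggg
MAP7, -93 to -64, chr6:136550486-136550515, minus strand: ccggactgcgctCACCTGtctgggccgctg
CDS1, -39 to -10, chr4:84583088-84583117, plus strand: cgtggagacgcgCACCTGgcaaccggaggc
TSPAN13, -233 to -204, chr7:16753522-16753551, plus strand: gccctccctcctCACCTGctcctggggaaa

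In BSPRY the pair of motifs lies across the start site, 3 bases apart and in opposite orientations. LAD1 also has 1 copy in each orientation, KDF1 has both as CAGGTG, and MAP7, CDS1 and TSPAN13 carry CACCTG as read along the gene. The MAP7 copies are in the first of its 4 windows, and the other windows hold none. These letters were not found in the windows of SH2D3A and TSPAN1. A match is a stretch of sequence, and no binding was measured here.

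The genes fell into sets that differed in SUM159. BSPRY, KDF1, LAD1 and ATP2C2 came on from near 0 in MDA-MB-231 and stayed at or near 0 in SUM159 cells with ZEB1 repressed. Against No gRNA, MAP7, CDS1 and TSPAN13 were called higher in both SUM159 targeted groups, SH2D3A rose by the test against no change, and TSPAN1 did not pass a test. A gene is called when voom-limma with TREAT puts its change beyond a log2 fold change of 1 at a Benjamini-Hochberg adjusted p under 0.05 over all genes tested in the line. The moderated test of the same fit asks only whether the change differs from 0.

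**Figure D1:**
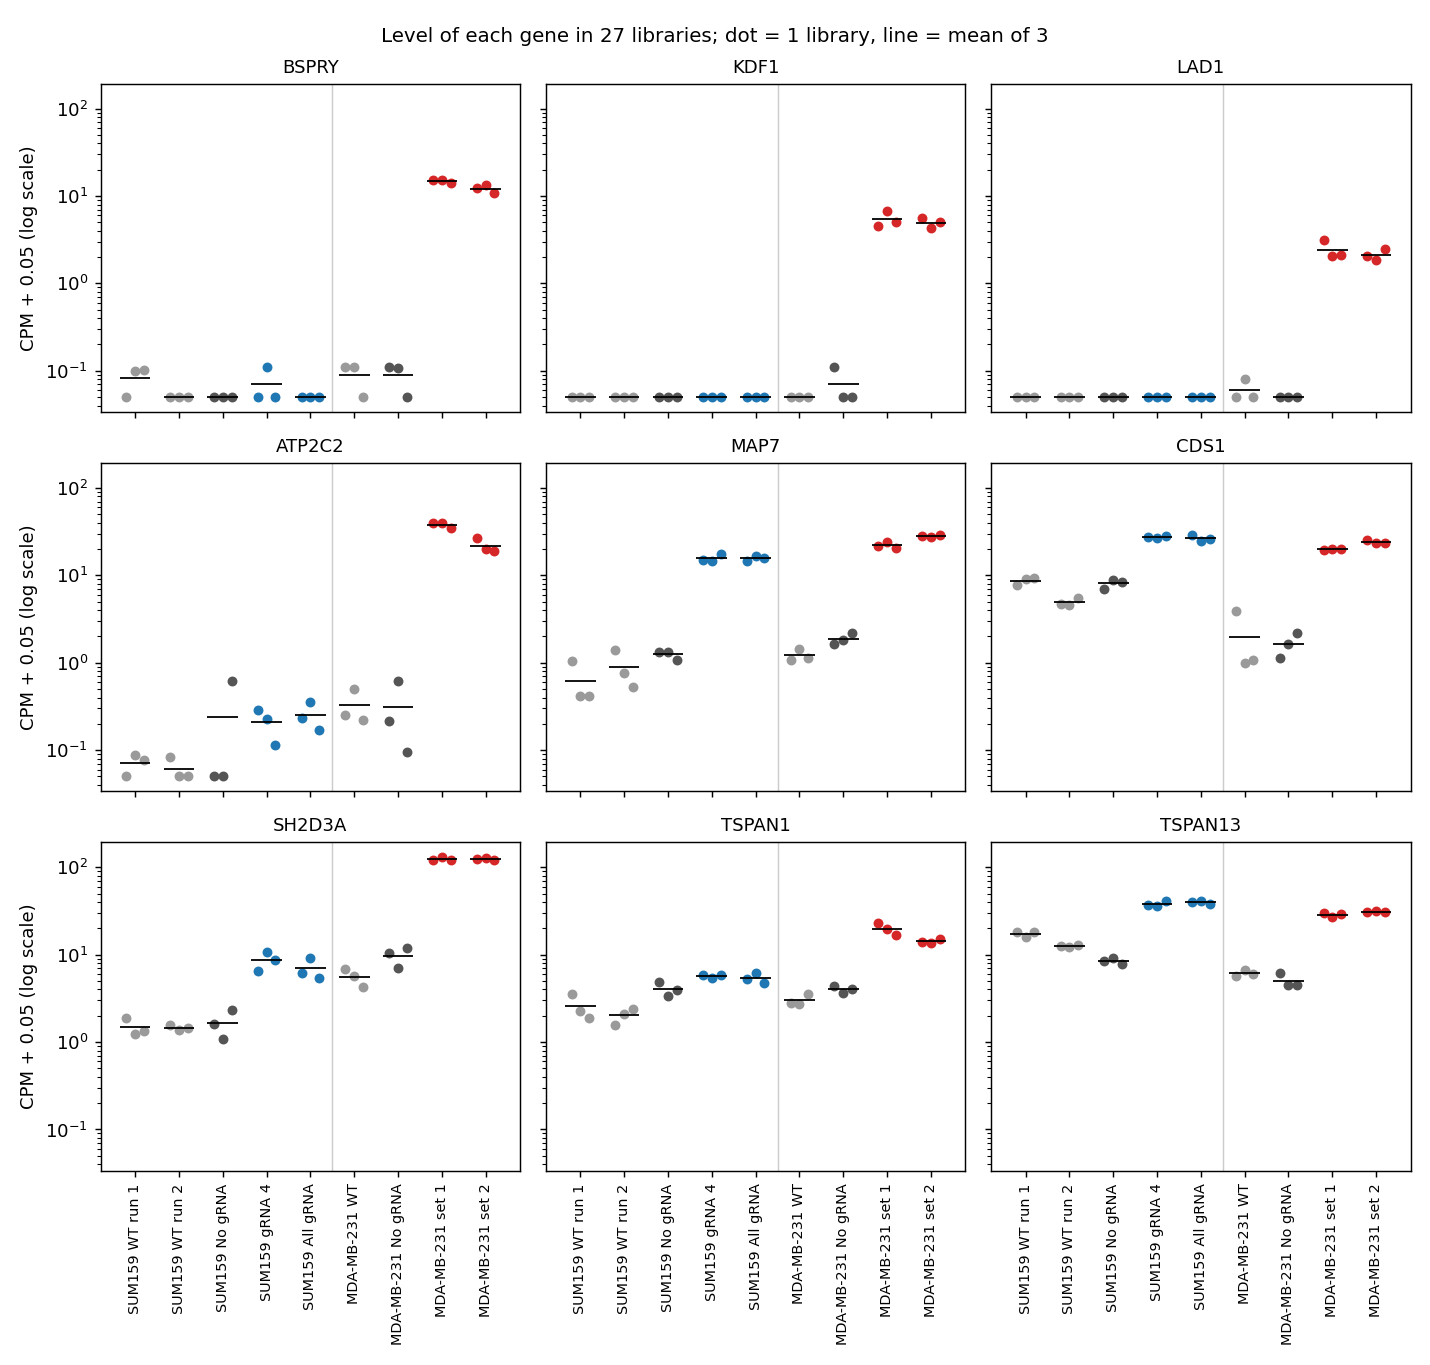
Level of each gene (CPM + 0.05, log axis) in all 27 libraries, where a dot is 1 library and a line the mean of the 3 libraries of a group; the grey vertical line separates SUM159 from MDA-MB-231, grey dots are controls, blue dots SUM159 targeted and red dots MDA-MB-231 targeted libraries. BSPRY, KDF1, LAD1 and ATP2C2 are far higher in the red dots than in all others, whereas MAP7, CDS1, SH2D3A and TSPAN13 have all 6 blue dots above all 9 SUM159 controls.

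BSPRY (ENSG00000119411, chr9:113349541-113371233, plus strand; GRCh38, GENCODE v44, as for the genes below) had 247.4, 256.5 and 221.2 estimated counts in the 3 libraries of MDA-MB-231 set 1 and 208.4, 230.7 and 171.4 in set 2. In the 6 control libraries of that line it had 0 or 1 count. Across the 15 SUM159 libraries, 12 were at 0 and 3 had 1 count, of which 2 were wild type and 1 was targeted with gRNA 4. The gene was thus found in MDA-MB-231 targeted cells and hardly detected elsewhere. Against No gRNA, the ratio of summed counts was 385 in set 1 (95% exact interval 110.4 to 3311) and 315 in set 2 (90.3 to 2711), and these intervals cover counting error only.

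KDF1 (ENSG00000175707, chr1:26949562-26960468, minus strand), keratinocyte differentiation factor 1, had 73.3, 111.3 and 78.7 counts in set 1 and 93.7, 73.4 and 77.5 in set 2. A single MDA-MB-231 No gRNA library held 1.1 counts, and the other 5 control libraries of the line were at 0. All 15 SUM159 libraries were at 0. The ratio to No gRNA was 266 in set 1 (51.7 to 11513) and 240.5 in set 2 (46.7 to 10420), wide because the control count was close to 1. Against MDA-MB-231 wild type, where the 3 libraries were at 0, KDF1 was at least 93.5-fold higher in set 1 and at least 84.3-fold higher in set 2, with a floor of 3 counts over the group.

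LAD1 (ENSG00000159166, chr1:201380833-201399915, minus strand) encodes ladinin 1, an anchoring filament protein of basement membranes. It had 49.9, 33.8 and 32.2 counts in set 1 and 34.7, 31.4 and 37.6 in set 2. The MDA-MB-231 No gRNA libraries and the SUM159 libraries were at 0, and of the MDA-MB-231 wild type libraries 1 had 0.5 counts. LAD1 was at least 42.7-fold higher in set 1 than in No gRNA cells and at least 37.1-fold higher in set 2, with the same floor. For KDF1 and LAD1, 0 counts in the 15 SUM159 libraries allow a level of up to 0.0113 CPM, and 0 in the 6 targeted ones up to 0.0285 CPM. The mean levels in the MDA-MB-231 targeted groups were 5.38 and 4.88 CPM for KDF1 and 2.38 and 2.08 CPM for LAD1. A switch of that size would have been seen at the depth of the SUM159 libraries.

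ATP2C2 (ENSG00000064270, chr16:84368527-84464187, plus strand), the secretory pathway pump SPCA2, had 640.9, 666.6 and 540.7 counts in set 1 and 455.6, 348.0 and 299.2 in set 2. MDA-MB-231 No gRNA cells had 2.9, 10.2 and 0.8 counts and wild type cells 3.3, 7.8 and 3.1. The ratio to No gRNA was 146 in set 1 (86.6 to 267) and 84.8 in set 2 (50.1 to 155). SUM159 cells had 4.2, 3.0 and 1.1 counts with gRNA 4 and 3.3, 5.5 and 2.2 with All gRNA, against 0, 0 and 10.0 in No gRNA and 0, 0.8 and 0.5 in run 1 wild type cells. All 6 SUM159 targeted libraries had counts, but the No gRNA library with 10.0 counts lay above them. The SUM159 ratio to No gRNA was 1.06 with All gRNA (0.409 to 2.79) and 0.838 with gRNA 4 (0.278 to 2.28). Against wild type it was 9.43 (1.82 to 538) and 7.48 (1.28 to 424). The ratio to No gRNA rests on the single library with 10.0 counts, since the other No gRNA libraries were at 0. These intervals cover counting error only and not that spread between libraries. ATP2C2-AS1, on the opposite strand, shares exon sequence and had at most 27.7 counts in a library. Whether counting used strand is not given in the sources used here.

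The fitted log2 fold changes in MDA-MB-231 were 7.98 and 7.71 for BSPRY (SE 0.55 in each set), 7.03 and 6.92 for KDF1, 6.41 and 6.25 for LAD1 and 7.55 and 6.77 for ATP2C2, for set 1 and set 2. With controls at or near 0 these values depend on the 0.5 added to each count and are no bounds. For ATP2C2 they were 8.33 and 7.57 without No gRNA library 2, which had 10.2 counts, and 6.81 and 6.03 without library 3, which had 0.8. In SUM159 the 4 genes fell under the count filter and were not tested.

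MAP7 (ENSG00000135525, chr6:136342281-136550819, minus strand), which binds microtubules and recruits kinesin-1, was low in all controls. SUM159 No gRNA cells had 1.29, 1.29 and 1.03 CPM and run 1 wild type cells 0.994, 0.361 and 0.366. With gRNA 4 the 3 libraries had 14.9, 14.5 and 17.4 CPM and with All gRNA 14.6, 16.8 and 15.6. The targeted and control libraries did not overlap. MAP7 was called, with a log2 fold change of 3.67 (SE 0.25; adjusted p = 0.000135, voom-limma with TREAT) for All gRNA and 3.66 (SE 0.25; adjusted p = 0.000126) for gRNA 4. MDA-MB-231 No gRNA cells had 1.58, 1.78 and 2.14 CPM, set 1 had 21.6, 24.1 and 20.5 and set 2 had 28.4, 27.7 and 29.2, which is a log2 fold change of 3.58 and 3.97. MDA-MB-231 wild type cells had 1.02, 1.41 and 1.08 CPM and SUM159 wild type cells of run 2 had 1.33, 0.715 and 0.479, all below every targeted library. The difference between the mean responses of the lines (MDA-MB-231 minus SUM159) was 0.09 on the log2 scale, and -0.44 with wild type as the control. MAP7-AS1, on the opposite strand, had at most 8.71 counts.

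CDS1 (ENSG00000163624, chr4:84583127-84651334, plus strand) makes CDP-diacylglycerol, from which phosphatidylinositol is built. Its level was 7.02, 8.84 and 8.26 CPM in SUM159 No gRNA cells, 27.5, 26.7 and 28.2 CPM with gRNA 4, and 28.9, 25.0 and 25.9 CPM with All gRNA. Every targeted library was above every control of the line. CDS1 was called, with a log2 fold change of 1.73 (SE 0.11; adjusted p = 0.00929, voom-limma with TREAT) for All gRNA and 1.77 (SE 0.11; adjusted p = 0.00478) for gRNA 4. The All gRNA call was lost without No gRNA library 1 (adjusted p = 0.0720), without No gRNA library 3 (0.0564) and with the compared groups alone in the fit (0.0894). In MDA-MB-231 it went from 1.10, 1.58 and 2.14 CPM in No gRNA cells to 19.5, 19.8 and 19.9 in set 1 and 25.4, 23.5 and 23.6 in set 2, a log2 fold change of 3.65 and 3.96. The levels reached were close to those of SUM159, where the range of All gRNA overlapped that of set 2, while the control levels were 8.04 CPM in SUM159 and 1.61 CPM in MDA-MB-231. Wild type cells had 7.75, 8.97 and 9.30 CPM (SUM159 run 1), 4.64, 4.48 and 5.43 CPM (SUM159 run 2) and 3.84, 0.931 and 1.04 CPM (MDA-MB-231). The mean responses differed by 2.03 on the log2 scale.

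SH2D3A (ENSG00000125731, chr19:6752160-6767463, minus strand), an SH2 domain adaptor of the BCAR1 family of signals, had 1.56, 1.03 and 2.26 CPM in SUM159 No gRNA cells. It had 6.46, 10.8 and 8.55 CPM with gRNA 4 and 6.16, 9.22 and 5.40 with All gRNA, all above the controls. The log2 fold change was 2.10 (SE 0.36) for All gRNA and 2.41 (SE 0.35) for gRNA 4. It rose by the moderated test (adjusted p = 0.00278 and 0.000869) and was not called by TREAT (0.704 and 0.164). For gRNA 4 it was called by edgeR's glmTreat (adjusted p = 0.0210) and by DESeq2 (0.0146) at the same fold threshold. MDA-MB-231 started higher, at 10.4, 6.99 and 11.7 CPM in No gRNA cells, and reached 122.7, 130.4 and 121.0 CPM in set 1 and 125.2, 128.8 and 122.3 in set 2. The ranges of both SUM159 targeted groups overlapped the range of MDA-MB-231 No gRNA cells. Wild type cells had 1.86, 1.17 and 1.30 CPM in SUM159 run 1, 1.53, 1.31 and 1.39 CPM in run 2 and 6.89, 5.64 and 4.18 CPM in MDA-MB-231. Its log2 fold change in MDA-MB-231 was 3.72 and 3.75, which was above the mean SUM159 response by 1.46.

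TSPAN1 (ENSG00000117472, chr1:46175073-46185962, plus strand) had 4.77, 3.36 and 3.88 CPM in SUM159 No gRNA cells, 5.82, 5.35 and 5.77 with gRNA 4 and 5.27, 6.11 and 4.74 with All gRNA. The All gRNA range overlapped that of No gRNA cells. The log2 fold change was 0.42 (95% interval -0.03 to 0.88; adjusted p = 0.229 by limma's moderated test) and 0.50 (0.04 to 0.95; adjusted p = 0.159). MDA-MB-231 No gRNA cells were at 4.32, 3.58 and 3.96 CPM, as in SUM159, but set 1 had 22.7, 19.6 and 16.7 CPM and set 2 had 13.8, 13.7 and 15.1, a log2 fold change of 2.31 and 1.86. Wild type levels were 3.50, 2.23 and 1.84 CPM in SUM159 run 1, 1.53, 2.03 and 2.35 CPM in run 2 and 2.72, 2.68 and 3.52 CPM in MDA-MB-231. The mean responses of the lines differed by 1.60.

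TSPAN13 (ENSG00000106537, chr7:16753755-16784536, plus strand) had 8.47, 9.18 and 7.87 CPM in SUM159 No gRNA cells. With gRNA 4 the libraries were at 36.8, 36.1 and 41.5 CPM and with All gRNA at 40.6, 41.1 and 38.3. TSPAN13 was called, with a log2 fold change of 2.23 (SE 0.10; adjusted p = 7.13e-05, voom-limma with TREAT) for All gRNA and 2.15 (SE 0.11; adjusted p = 0.000119) for gRNA 4. Run 1 wild type cells, at 18.0, 16.1 and 18.2 CPM, lay well above No gRNA cells. In MDA-MB-231 it went from 6.07, 4.47 and 4.49 CPM to 29.6, 26.9 and 28.8 in set 1 and 30.9, 31.2 and 30.4 in set 2, a log2 fold change of 2.52 and 2.66. MDA-MB-231 wild type cells had 5.63, 6.64 and 6.01 CPM and SUM159 wild type cells of run 2 had 12.5, 12.3 and 12.9. The difference between the lines was 0.37 against No gRNA and 1.13 against wild type.

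**Figure D2:**
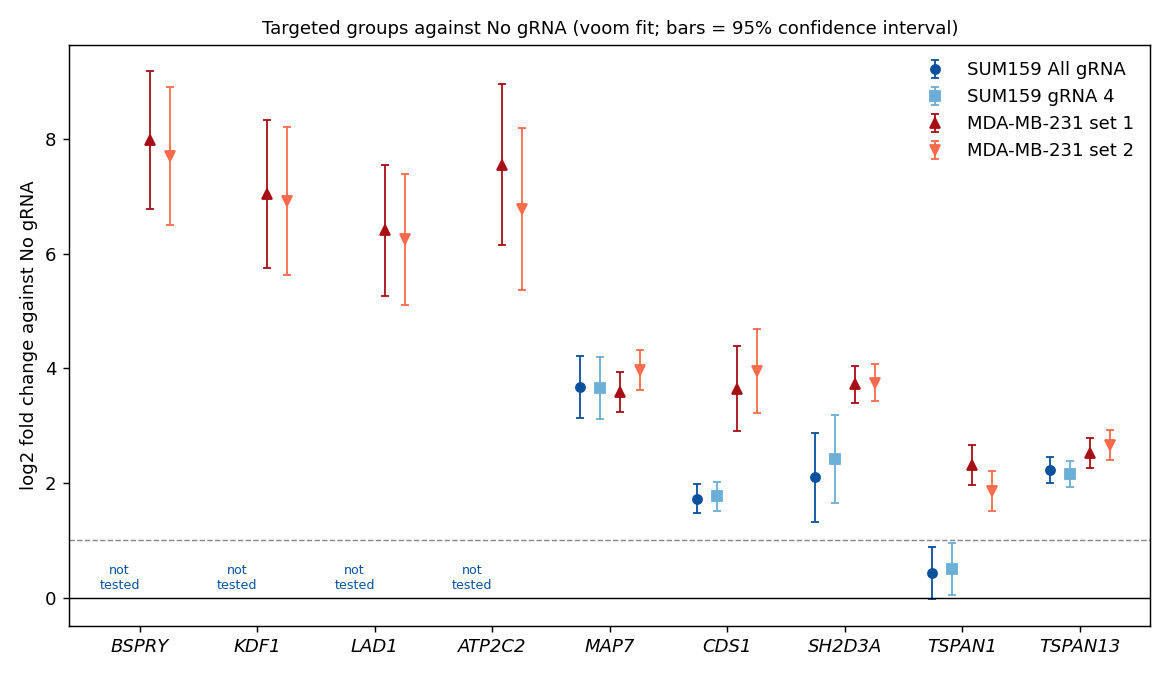
Log2 fold change against No gRNA with its 95% confidence interval (for MDA-MB-231 a description, since that change chose the genes) for each gene in SUM159 All gRNA, SUM159 gRNA 4, MDA-MB-231 set 1 and set 2; the dashed line is the TREAT threshold of 1 and genes under the SUM159 count filter are marked as not tested. The 4 groups lie close together for MAP7 and TSPAN13 and apart for CDS1, SH2D3A and TSPAN1.

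In SUM159, 3 of the 5 genes tested were called higher for All gRNA and 3 for gRNA 4, where 0.33% and 0.297% of the 15147 genes tested were called higher. By the moderated test 4 of the 5 rose in each, against 5.93% and 6.11% of all genes. The 5 did not need the groups where they were high to pass the count filter. Their lowest count in a SUM159 No gRNA library was 17.2, for SH2D3A, above the filter's minimum count of 10. Of the 9, MAP7, CDS1, SH2D3A and TSPAN13 had all 6 targeted SUM159 libraries above all 9 SUM159 control libraries, which held for 3.57% of genes tested. In MDA-MB-231 all 9 were called higher in each set, where 1.1% (set 1) and 1.74% (set 2) of 15721 genes were, and the choice of the genes fixed that count. Their median log2 fold change was 3.72 and 3.97 there, and 2.10 and 2.15 for the 5 in SUM159, with the median of all genes between -0.01 and 0.00. The comparisons of targeted groups with No gRNA cells in a line share those No gRNA libraries.

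The SUM159 All gRNA and gRNA 4 groups were compared directly. ZEB1 was lower with All gRNA (log2 fold change -2.25, SE 0.37; adjusted p = 0.0165 by limma's moderated test). None of the 5 tested genes was called by TREAT or the moderated test, none had an unadjusted p under 0.05 by either, and edgeR and DESeq2 called none. TREAT called 0% of all genes in either direction, and the moderated test called 0.561% higher and 0.383% lower. The 95% interval of the difference was -0.27 to 0.30 for MAP7, -0.24 to 0.15 for CDS1 and -0.09 to 0.25 for TSPAN13, and wider for SH2D3A (-0.84 to 0.22) and TSPAN1 (-0.50 to 0.35).

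Set 1 and set 2 of MDA-MB-231 were compared in the same way. None of the 9 genes was called by TREAT, with none at an unadjusted p under 0.05, against 3.07% of all genes called in either direction. By the moderated test 3 differed, where 26.3% of all genes were higher in set 1 and 25.2% lower. ATP2C2 was higher in set 1 by a log2 fold change of 0.78 (SE 0.14; adjusted p = 0.000714 by limma's moderated test) and TSPAN1 by 0.45 (SE 0.12; 0.00697), while MAP7 was lower in set 1 (-0.38, SE 0.08; 0.0017). The libraries of the sets did not overlap for these 3 genes, nor for BSPRY, CDS1 and TSPAN13. BSPRY, ATP2C2 and TSPAN1 were higher in set 1, as were 31.2% of all genes, and MAP7, CDS1 and TSPAN13 in set 2, as were 27.6%. ZEB1 itself differed by 0.18 (95% interval -0.32 to 0.68). edgeR's quasi-likelihood test also found 3, and edgeR's glmTreat and DESeq2 with the fold threshold found 0.

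The control used mattered for several genes in SUM159. Between No gRNA and run 1 wild type cells, TREAT called none of the 5, with none at an unadjusted p under 0.05 (1.53% of genes were called), whereas 3 were found by the moderated test and 3 by edgeR's quasi-likelihood test. TSPAN13 was lower in No gRNA cells (-1.04, SE 0.11; adjusted p = 2.06e-05 by limma's moderated test), whereas MAP7 (1.18, SE 0.38; 0.0254) and TSPAN1 (0.69, SE 0.23; 0.0328) were higher. The moderated test called 21% of all genes higher and 21.9% lower in this comparison. With wild type cells as the control, the TSPAN13 log2 fold change fell to 1.19 for All gRNA and 1.11 for gRNA 4, and the TREAT call was lost (adjusted p = 0.480 and 1). MAP7 rose by 4.85 and 4.84 and CDS1 by 1.61 and 1.65 against wild type, and both stayed called. SH2D3A was then called for gRNA 4 (2.53; adjusted p = 0.0211) and not for All gRNA (2.22; 0.0839). TSPAN1, not called against No gRNA, differed from wild type by 1.11 and 1.18 (adjusted p = 0.00149 and 0.00104 by the moderated test).

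**Figure D3:**
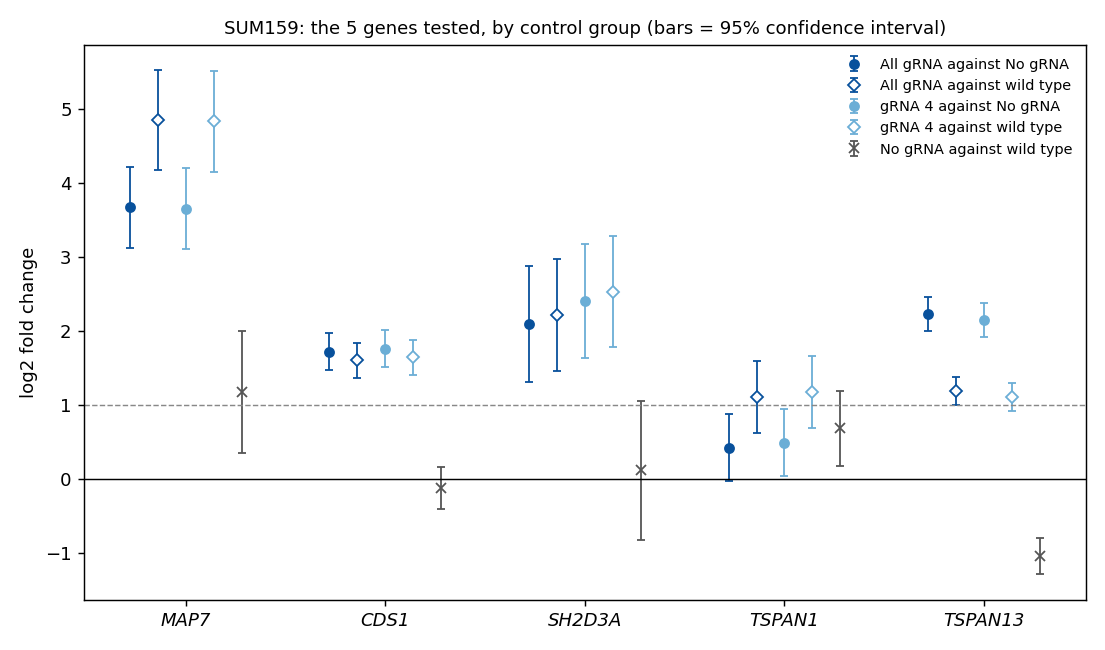
SUM159 log2 fold changes of the 5 genes tested, with 95% confidence intervals, for All gRNA and gRNA 4 against No gRNA (filled) and against run 1 wild type (open), and for No gRNA against wild type (crosses); the dashed line is the TREAT threshold of 1. TSPAN13 moves from 2.23 and 2.15 to 1.19 and 1.11 when the control changes, and CDS1 stays between 1.61 and 1.77.

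In MDA-MB-231, No gRNA and wild type cells gave no TREAT call among the 9 genes and none at an unadjusted p under 0.05, where 3.6% of all genes were called. All 9 had been chosen as near 0 or low in these libraries. BSPRY, KDF1, LAD1 and ATP2C2 held at most 10.2 counts in any of them and passed the count filter only through set 1 and set 2. For these 4 the outcome was largely fixed by the choice, so no conclusion on the vector is drawn. The moderated test found SH2D3A higher in No gRNA cells (0.75, SE 0.22; adjusted p = 0.0133), as were 26.2% of all genes, and edgeR's quasi-likelihood test found 3 genes. ZEB1 was also higher in No gRNA than in wild type cells of this line (0.60, SE 0.08; adjusted p = 5.16e-05 by the moderated test). Against wild type the 9 genes kept a positive log2 fold change, between 2.17 for TSPAN13 and 7.89 for BSPRY in set 1 and between 2.22 for TSPAN1 and 7.61 for BSPRY in set 2.

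SUM159 wild type cells sequenced in both runs show how far a level moved without any construct. TREAT called none of the 5 genes, with none at an unadjusted p under 0.05 (6.65% of 14337 genes were called), while 2 were found by the moderated test and 2 by edgeR's quasi-likelihood test (30.9% of genes were lower by the moderated test). CDS1 was lower in run 2 (-0.83, SE 0.15; adjusted p = 0.00208 by limma's moderated test), from 8.67 to 4.85 CPM, and TSPAN13 was lower by a smaller amount (-0.46, SE 0.10; 0.00465). BSPRY was at 0 in run 2, and KDF1 and LAD1 in both runs.

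Within run 2, wild type SUM159 and MDA-MB-231 cells could be compared without the run. SH2D3A was lower in SUM159 (-1.92, SE 0.28; adjusted p = 0.0257, voom-limma with TREAT), at 1.41 CPM against 5.57 CPM, where 16.1% of genes were called lower. That call was lost without any 1 of the 3 SUM159 libraries or without MDA-MB-231 library 2 (adjusted p between 0.0590 and 0.0840). TSPAN13 (1.04, SE 0.12; adjusted p = 0.000127) and CDS1 (1.64, SE 0.45; 0.0129) were higher in SUM159 by the moderated test, as were 37% of all genes. For CDS1, MDA-MB-231 wild type library 1 had 3.84 CPM and the others 0.931 and 1.04. Without it the difference grew to 2.26 and was called by TREAT (adjusted p = 0.00730). MAP7 (-0.57, 95% interval -1.49 to 0.36) and TSPAN1 (-0.60, -1.16 to -0.04) did not pass a test.

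Over the 9 groups the order of levels differed between the genes. MDA-MB-231 set 1 or set 2 was highest for all but CDS1 and TSPAN13, whose highest groups were SUM159 gRNA 4 and SUM159 All gRNA. For CDS1 the ranges of neighbouring groups overlapped from SUM159 gRNA 4 through All gRNA to set 2, and for TSPAN13 only those of the SUM159 targeted groups and of the MDA-MB-231 controls overlapped. The Pearson correlation of each gene's mean log2 level with the mean profile of the others was 0.61 for TSPAN13 and 0.64 for CDS1, and between 0.85 and 0.95 for the other 7. The genes with the profile most like the mean of the 9, among 17345 genes with at least 10 counts in 3 libraries, were the readthrough gene ENSG00000256825 (r = 0.996), PKP3 (0.981), IQANK1 (0.977), SPINT1-AS1 (0.976) and FA2H (0.975). PKP3 encodes a desmosome protein and FA2H a fatty acid hydroxylase. These correlations are over 9 group means that share cell line and run, and are given as a description.

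Genes related to the 9 were described from lists. Of 7 paralogues, among them ATP2C1, CDS2 and MAP7D1, 6 were tested in each line and none was called by TREAT in the 4 targeted comparisons. By the moderated test BCAR3, a relative of SH2D3A, was higher in SUM159 than in No gRNA cells by 0.82 and 0.77 on the log2 scale, but lower than in wild type cells (-0.43 and -0.48), and the test was passed in both directions. BCAR3 was lower in set 2 than in MDA-MB-231 No gRNA cells (-0.56). Against wild type cells of that line it was higher, by 0.68 in set 1 and 0.28 in set 2 (adjusted p = 5.92e-06 and 0.0123 by the moderated test). In MDA-MB-231 the median log2 fold change of the 6 paralogues tested was 0.21 in set 1 and 0.25 in set 2, against -0.01 for all genes in each. By the same test some were higher in both sets, and some were also lower in set 2. Of 31 other tetraspanins, 17 were tested in SUM159 and 21 in MDA-MB-231. TSPAN18 was called in SUM159 for All gRNA (2.18, SE 0.21; adjusted p = 0.0215) and not for gRNA 4 (1.86, SE 0.21; 0.163), and CD82 was called lower in set 2 (-1.61, SE 0.06; 2.77e-05). Both were also higher in No gRNA than in wild type cells. The difference was 3.84 for TSPAN18 in SUM159 (SE 0.48; adjusted p = 0.00566 by TREAT). For CD82 in MDA-MB-231 it was 1.12 (SE 0.05; adjusted p = 1.35e-08 by the moderated test). Of 8 known partners, which include ORAI1 for ATP2C2, KIF5B for MAP7, BCAR1 for SH2D3A and CDIPT for CDS1, SFN was called in both MDA-MB-231 sets (2.43 and 2.76, SE 0.06 in each; adjusted p = 5.7e-08 and 3.64e-09). SFN, the 14-3-3 sigma protein that acts with KDF1 in epidermis, rose in SUM159 by 0.80 and 0.78 by the moderated test and was not called by TREAT there. In MDA-MB-231 SFN was lower in No gRNA than in wild type cells (-1.06, SE 0.07; adjusted p = 1.21e-07 by the moderated test).

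In a list of 45 other epithelial genes, 25 were tested in SUM159 and 9 were called higher in each comparison, with none lower. A gene near 0 in controls, such as EPCAM in SUM159, passed the count filter only through the targeted groups where it was high. The number called among those tested is therefore a description. Of all genes, 0.33% (All gRNA) and 0.297% (gRNA 4) were called higher. In MDA-MB-231, 40 were tested, and 14 were called higher in set 1 and 17 in set 2, with none lower, where 1.1% and 1.74% of all genes were called higher. The median log2 fold change of the list was 1.54 and 1.51 over the 25 genes tested in SUM159. It was 1.56 and 1.44 over the 40 tested in MDA-MB-231, so the medians of the lines are not over the same genes. For No gRNA against wild type cells the median was 0.55 in SUM159 and 0.61 in MDA-MB-231. Among the genes with the largest changes called in both SUM159 comparisons were SPINT1 (5.67 and 5.67), EPCAM, SPINT2 (4.55 and 4.05) and CDH3 (4.15 and 4.72). In MDA-MB-231, SPINT2 changed by 0.70 in set 1 and 0.55 in set 2 and was not called by TREAT, while SPINT1, EPCAM and CDH3 were called in both sets. In SUM159, EPCAM was at 0 in the 3 No gRNA libraries. It was at least 15.1-fold higher with All gRNA and at least 19.5-fold higher with gRNA 4, with the floor of 3 counts. Its counts summed over 3 libraries were 46.9 with All gRNA and 57.7 with gRNA 4, against 676.8 in MDA-MB-231 No gRNA cells. So in SUM159 targeted cells EPCAM rose from 0 in No gRNA cells to a low level, while KDF1 and LAD1 stayed at 0.

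The motif was also counted in the windows of genes called in each comparison, which include the 9. It was present for 55.7% of the 115 genes called higher in set 1 that had a window, 35.8% of 187 in set 2, 42.9% of 28 in SUM159 All gRNA and 48.1% of 27 in SUM159 gRNA 4. Of all tested genes with a window, 24.1% in MDA-MB-231 and 23.4% in SUM159 had it, and of those called lower 28.2% of 39 in set 1, 22.5% of 253 in set 2, 42.9% of 7 in SUM159 All gRNA and 50.0% of 8 in SUM159 gRNA 4. In SUM159 the shares among genes called higher were thus no larger than among the few called lower. The number of copies did not separate the genes that came on in SUM159 from those that did not, since BSPRY, KDF1, LAD1 and MAP7 have 2 each and SH2D3A has none. Base composition of these windows was not set equal between the groups.

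Markers of other cell types moved in part with the groups. Summed over 5 luminal markers (GATA3, FOXA1, KRT8, KRT18, KRT19), MDA-MB-231 No gRNA libraries had 803 to 831 CPM, set 1 had 1114 to 1183 and set 2 had 2388 to 2495, and SUM159 libraries went from 360 to 375 in No gRNA to 446 to 482 in targeted cells. Wild type cells were at 1355 to 1393 CPM in MDA-MB-231, above set 1, and at 389 to 397 CPM in SUM159 run 1. The 5 mesenchymal markers (VIM, CDH2, FN1, SPARC, AXL) summed to 6567 to 6717 CPM in SUM159 No gRNA and 5263 to 6115 in targeted cells, and to 4792 to 5083 in MDA-MB-231 No gRNA, 3243 to 3423 in set 1 and 3741 to 3810 in set 2. Wild type cells were at 5228 to 5493 CPM in SUM159 run 1 and 3675 to 3780 CPM in MDA-MB-231, ranges that overlapped those of SUM159 targeted cells and of set 2. The 5 fibroblast markers summed to 228 to 237 CPM in SUM159 No gRNA, 368 to 396 in targeted cells and 141 to 155 in run 1 wild type cells, and to 15.8 CPM or less in every MDA-MB-231 library. These sums follow the most abundant genes, and single markers went both ways against No gRNA. By the moderated test, 1 of the 4 luminal markers tested in SUM159 was higher in each targeted group. The median log2 fold change of these luminal markers was -0.04 for All gRNA and -0.21 for gRNA 4. By the same test, fibroblast markers were higher or lower in both SUM159 targeted groups. Mesenchymal markers were likewise higher or lower in both MDA-MB-231 sets. The 5 basal or myoepithelial markers summed to 148 to 149 CPM in SUM159 No gRNA, 193 to 233 in targeted cells and 266 to 281 in run 1 wild type cells, so that targeted cells were above one control and below the other, and to 11.1 CPM or less in MDA-MB-231. SUM159 wild type cells of run 2 summed to 254 to 259 CPM for luminal and 4299 to 4379 for mesenchymal markers. They summed to 312 to 322 CPM for fibroblast and 42.4 to 46.6 for basal or myoepithelial markers. For each of these lists the SUM159 wild type ranges of the runs did not overlap, so the sums also moved without any construct. Endothelial markers summed to at most 15.4 CPM in a library. CD68 was at 162 to 174 CPM in MDA-MB-231 No gRNA, 102 to 109 in wild type, 156 to 159 in set 1 and 64.1 to 66.8 in set 2. The part of these shifts in the changes of the 9 genes was not tested.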

How the data were processed

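The authors sequenced 50 bp single-end reads, quantified them with Salmon and summed them to genes with tximport. The deposited values are estimated counts, which the authors did not normalise between libraries. The labels name the build GRCh38, and the Salmon version and the strand setting are not given in the sources used here. All 27 libraries were used. Groups came from the sample labels, and symbols from GENCODE v44 for 56347 of 57165 identifiers.

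Comparisons used R 4.3.3 with limma 3.58.1 and, as in the study's methods, voom-limma with TREAT and Benjamini-Hochberg adjustment. Those methods name no scaling, count filter or TREAT threshold. Used here were voom (0.5 added to each count), TMM scaling, filterByExpr with a minimum count of 10 and a fit over the 12 libraries of a line. TREAT was two-sided against a threshold of 1 on the log2 scale, and genes were called at an adjusted p under 0.05. The filter left 15147 genes in SUM159 and 15721 in MDA-MB-231. Both wild type comparisons in run 2 were fitted on the wild type groups, and the difference between lines over 24 libraries. edgeR 4.0.16 and DESeq2 1.42.0 were alternatives, on counts rounded to whole numbers. The code was tested on simulated data. Log2 CPM of replicates correlated at 0.979 to 0.985. Same-numbered libraries did not deviate together (correlations -0.083 to 0.058), so numbers were not used as pairs. A count of 0 was given a floor of 3 counts, and intervals are at 95%.

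The genes, and the lists of paralogues, tetraspanins, partners, other epithelial genes and cell type markers, were chosen with earlier results of these data known. Besides the 9 genes and ZEB1, values are given for called genes of the first 3 lists, for up to 5 epithelial genes with the largest change among those called in both SUM159 comparisons, and for the 5 genes most alike in profile. Other genes named were chosen after their values were seen. Some genes that these rules or lists include are not reported here.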

Additional observations from a re-analysis of the deposited data

How the results depend on the processing

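The 3 calls in SUM159 All gRNA against No gRNA and the 3 for gRNA 4 stayed within 1.5 times under every alternative run, with 2 to 3 and 3 when each library was left out. No gene changed direction in these comparisons. For set 1 against No gRNA the median log2 fold change of the 9 genes, 3.72, moved by more than 1 SD of the libraries with library totals (3.64) and with wild type as the control (4.47), and for set 2 the median of 3.97 moved to 4.55 with wild type. Leaving out libraries gave 3.66 to 3.88 and 3.87 to 4.19, and 1 of the 6 fits for each set moved by more than 1 SD. For single genes over all alternatives, 46 values moved by more than 1 SD of the gene's libraries in set 1 and 98 did not. In set 2, 47 moved and 97 did not. The median difference between the lines over the 9 genes, 2.03, moved to 2.18 with wild type. It lay between 1.79 and 2.27 without single libraries, where 2 of 18 fits moved by more than 1 SD. In that fit the 4 genes at or near 0 in SUM159 differed by 5.87 (ATP2C2) to 7.58 (BSPRY), values that depend on the 0.5 added to each count. The other genes lay between 0.09 (MAP7) and 2.03 (CDS1). Replacing TREAT by tests against 0 raised the calls, by construction. They went from 0 to 3 by the moderated test and by edgeR's quasi-likelihood test for set 1 against set 2 and for SUM159 No gRNA against wild type. They went from 0 to 1 and 3 for MDA-MB-231 No gRNA against wild type, from 0 to 2 and 2 for the SUM159 runs, and from 1 to 3 and 2 for the wild type lines. The count for the wild type lines was also 2 with no filter, and 0 to 2 without single libraries, while leaving out libraries kept the other 0 counts at 0. In SUM159 No gRNA against wild type, SH2D3A (0.12) turned to -0.15 without No gRNA replicate 3 and to -0.02 without wild type replicate 2, lay between -0.15 and 0.40 over the libraries left out, and was not called in any of these fits. The fit with the replicate number as a block gave 3 and 3 calls in SUM159, medians of 3.71 and 3.99 in MDA-MB-231, a difference of 2.03 between the lines, 1 call for the wild type lines and 0 for the other comparisons, and changed no call count. In the fit of the SUM159 libraries, 4 of the 9 genes were under the count filter and have no fitted change there.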
